A study of Sus scrofa with 24 samples.

Results

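RSAD2, MX1, ISG15, ISG12(A) and IFI44L are 5 antiviral genes that cells switch on in answer to interferon, and their levels were followed in loin muscle of pigs fed different fats. Type I interferon is the alarm signal that cells send out when they sense viral nucleic acid. It binds the receptor pair IFNAR1 and IFNAR2, and the signal passed on inside the cell turns on a large group of antiviral genes. In human muscle the same group is known above all from dermatomyositis, an inflammatory muscle disease in which it is strongly raised.

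The members were taken as all probe sets (sets of short oligonucleotides that together give 1 signal) whose platform symbol is 1 of these 5 genes. This gave 10 of the 24123 probe sets, and 5 of the 6765 genes that the array names by a single symbol. Their NCBI gene identifiers are 396752 (RSAD2), 397128 (MX1), 100145895 (ISG15), 100153902 (ISG12(A)) and 100511267 (IFI44L). RSAD2 had 4 probe sets, of which 3 belong to the array's own control probe sets; IFI44L had 3, and ISG15, MX1 and ISG12(A) had 1 each. The control probe sets were not tested, and 1 probe set of IFI44L fell below the signal filter, so that 6 of the 10 were tested. They cover all 5 genes.

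The arrays held RNA from the longissimus dorsi, the long muscle of the loin, of 24 crossbred pigs (Landrace × Large White × Duroc), with 1 array per pig. All were allotted to their diets at about 130 days of age and 71 kg. The feed of the pigs held 3% of 1 of 4 fats: soybean oil, olive oil, coconut oil or beef tallow. Each fat was given to 3 barrows (castrated males) and 3 gilts (young females) among the sampled pigs, and no group went without added fat. Pigs are named by the running number in their sample titles. Barrows carry the numbers 13 to 24 and gilts 1 to 12, so anything else that ran with this number cannot be told apart from sex. Which pen each of them came from was not analysed here, and every p-value treats the pigs as independent.

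Values are given as the signal of a probe set (intensity units, linear). Differences are on the scale of log2(signal + 1), so -1 means a signal about 50% as high. The defining genes of skeletal muscle were bright on every array, with creatine kinase CKM between 36038 and 62769 and desmin (DES) between 14739 and 32822 signal units. The Y-linked gene EIF1AY had signals of 1649 to 2148 in barrows, against 3.71 to 33.0 in gilts, which separates the sexes as labelled. The array medians lay between 138 and 174 signal units. The arrays of pigs 11, 16 and 12 correlated least with the others, with mean correlations of 0.912, 0.915 and 0.917, and no 2 arrays held identical values.

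RSAD2 encodes viperin, an enzyme that makes a chain-terminating nucleotide and thereby hinders viral replication. Its tested probe set had signals of 386, 226 and 268 in the barrows fed soybean oil (pigs 13, 14 and 19). The gilts fed soybean oil (pigs 3, 9 and 11) had 1229, 532 and 1895. No barrow on this fat reached the lowest gilt.

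The barrows fed olive oil (pigs 17, 18 and 22) had RSAD2 signals of 123, 209 and 156, and the gilts on that fat (pigs 4, 7 and 12) had 1998, 1246 and 461. The sexes again did not overlap, and these barrows were the group with the lowest mean of all 8. With coconut oil the signals were 167, 206 and 275 in barrows (pigs 15, 20 and 23), against 187, 1812 and 444 in gilts (pigs 1, 5 and 6). Here gilt 1 lay among the barrows, while gilt 5 was 9.68-fold above gilt 1 on the same diet. With beef tallow the signals were 513, 1007 and 214 in barrows (pigs 16, 21 and 24) and 1364, 508 and 1689 in gilts (pigs 2, 8 and 10). Barrow 21 was by far the highest barrow, and it lay above gilt 8.

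MX1 encodes a GTPase that traps viral nucleocapsids. Its signals were 382, 366 and 326 in barrows fed soybean oil, against 883, 585 and 1488 in gilts, with the pigs in the same sequence as for RSAD2. With olive oil they were 158, 270 and 301 in barrows and 1201, 802 and 527 in gilts. In both fats every barrow lay below every gilt. With coconut oil the barrows had 225, 256 and 312 and the gilts 290, 992 and 262, and with beef tallow the barrows had 470, 709 and 178 and the gilts 905, 594 and 862. Gilts 1 and 6 on coconut oil had barrow-like MX1 signals, and barrow 21 lay above gilt 8.

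ISG15 encodes a ubiquitin-like protein that is attached to other proteins during the interferon response. Its signals were 373, 341 and 311 in barrows fed soybean oil and 1397, 524 and 1737 in gilts. With olive oil they were 367, 363 and 300 in barrows, against 2294, 645 and 443 in gilts; the signal of gilt 4 was the highest of all pigs. With coconut oil the barrows had 232, 251 and 423 and the gilts 357, 1137 and 650, and with beef tallow the barrows had 534, 759 and 356 and the gilts 1046, 469 and 1177. The barrows on soybean oil and on olive oil were tight around their means, with SDs of 0.13 and 0.16 on the log2 scale, against 0.92 and 1.24 in the gilts on these fats (n = 3 each).

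ISG12(A) encodes a small membrane protein of the IFI27 family. It had signals of 1100, 703 and 971 in barrows fed soybean oil and 2746, 1583 and 4256 in gilts. With olive oil it had 660, 994 and 829 in barrows, against 4011, 1954 and 1672 in gilts. With coconut oil the barrows had 623, 667 and 993 and the gilts 890, 4248 and 1684, and with beef tallow the barrows had 1341, 2311 and 1119 and the gilts 3206, 1383 and 3598. As for RSAD2, gilt 1 lay among the barrows on coconut oil and barrow 21 was the highest barrow.

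IFI44L is induced by interferon in many cell types, and what its protein does is less well known. Its brightest probe set had 648, 619 and 802 in barrows fed soybean oil, against 1020, 823 and 1550 in gilts. With olive oil it had 397, 539 and 499 in barrows and 1619, 1079 and 820 in gilts. With coconut oil the barrows had 403, 540 and 404 and the gilts 532, 1455 and 792, and with beef tallow the barrows had 591, 948 and 615 and the gilts 1057, 939 and 1367. The spread among pigs was narrower here than for RSAD2. The second tested probe set of IFI44L lay between 209 and 455 in barrows and between 263 and 583 in gilts, and correlated with the first at r = 0.919 over the 24 pigs. The dim one below the filter, between 5.50 and 127 signal units, correlated with the first at only 0.430.

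**Figure D1:**
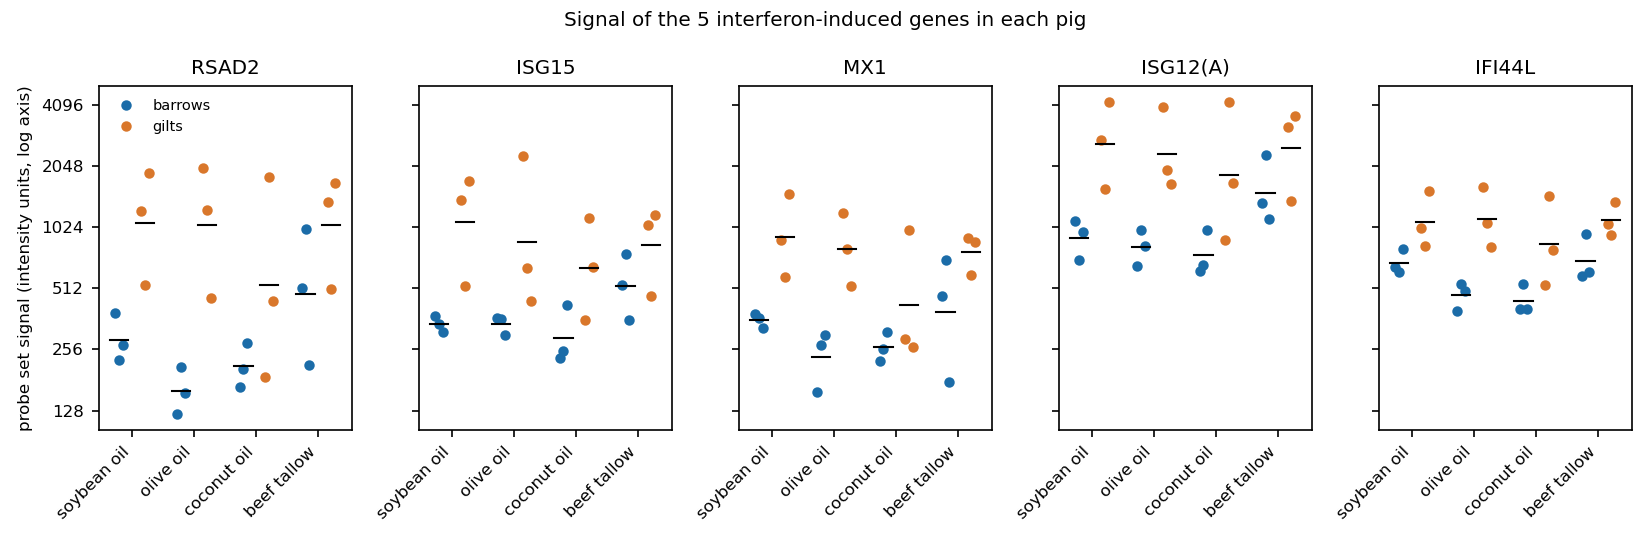
Signal of each of the 5 genes (brightest tested probe set, log axis, intensity units) in every pig, by dietary fat; blue points are barrows, orange points gilts, and short lines are the geometric means of 3 pigs. Barrows lie below all gilts of the same fat for each gene with soybean oil and olive oil, while the sexes overlap with coconut oil and beef tallow.

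Set against the gilts, all 5 genes were lower in barrows. Averaged over the 4 fats, all 6 tested probe sets passed the test (limma, Benjamini-Hochberg adjusted p under 0.05 over 14399 probe sets). Of all tested probe sets 4.77% passed in either direction and 2.51% passed as lower in barrows. The median difference of the 6 was -1.20, and that of all tested probe sets -0.02.

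RSAD2 averaged 8.03 ± 0.83 in barrows and 9.80 ± 1.10 in gilts (log2 scale, SD, n = 12 each). The difference was -1.77 ± 0.35 (SE), a 3.41-fold lower level in barrows (limma adjusted p = 0.00791). It was the sixth most negative difference of all tested probe sets. ISG12(A) averaged 9.90 ± 0.53 in barrows and 11.18 ± 0.74 in gilts, a difference of -1.28 ± 0.24 or 2.43-fold (limma adjusted p = 0.00621). ISG15 averaged 8.52 ± 0.46 in barrows and 9.72 ± 0.86 in gilts, a difference of -1.20 ± 0.27 or 2.30-fold (limma adjusted p = 0.0145). MX1, with 8.25 ± 0.59 in barrows and 9.45 ± 0.76 in gilts, differed by -1.20 ± 0.24 or 2.29-fold (limma adjusted p = 0.00880). IFI44L had the smallest difference, -0.88 ± 0.16 or 1.84-fold (limma adjusted p = 0.00475), with 9.14 ± 0.39 in barrows and 10.02 ± 0.47 in gilts. Its second probe set differed by -0.70 ± 0.13 (limma adjusted p = 0.00643).

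Exact permutation of the sexes within each fat gave two-sided p-values between 5e-05 (IFI44L) and 0.00035 (ISG15), where 1.25e-05 is the smallest p that the 160000 relabelings allow. All 6 probe sets still passed without pigs 11, 12 and 16. The difference was one of means and not a separation of the sexes: for each probe set 6 or 7 of the 12 gilts lay above all barrows, and 3 to 6 of the 12 barrows lay below all gilts. Over the 12 pigs of each sex the groups overlapped for all 6, while 0.0486% of all tested probe sets were lower in barrows with no overlap. In whole muscle a lower signal from fewer cells of a type and from less RNA per cell cannot be told apart.

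The control probe sets of RSAD2 ran alongside its main one, with correlations of 0.950 (3' end), 0.810 (middle) and 0.801 (5' end) over the 24 pigs. They were dim: 12, 16 and 16 of the 24 pigs lay below the signal filter of 86.3 on the 3', middle and 5' ones. When controls and dim probe sets were tested too, the 3' control was lower in barrows by a difference of -1.70 ± 0.39 (limma adjusted p = 0.0392). The 5' and middle controls, with -1.61 ± 0.49 and -1.26 ± 0.46, did not pass, nor did the dim probe set of IFI44L with -0.84 ± 0.31 (limma adjusted p of 0.110, 0.194 and 0.205).

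Within single fats the barrow minus gilt difference of RSAD2 was -1.91 with soybean oil, -2.71 with olive oil, -1.33 with coconut oil and -1.13 with beef tallow (SE 0.70 each, limma). The differences of all 6 probe sets were negative in each of the 4 fats. None passed the limma test within 1 fat, where 0.0556%, 0.188%, 0.104% and 0.0694% of all tested probe sets passed with soybean oil, olive oil, coconut oil and beef tallow. At an unadjusted p under 0.05 there were 6, 6, 4 and 0 of the 6, against 8.72%, 15.8%, 9.31% and 8.56% of all tested probe sets. The groups did not overlap for all 6 probe sets with soybean oil and for all 6 with olive oil, against 7.46% and 9.2% of all tested probe sets lower without overlap. With coconut oil and with beef tallow the count was 0 of 6, against 10.4% and 5.34%. The 6 probe sets were read on the same pigs and their levels are correlated, so the probe sets in such counts are not separate observations.

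The test of whether the sex difference itself changed with the fat did not pass for any of the 6 (limma interaction F, adjusted p between 0.845 and 0.927, 0 at an unadjusted p under 0.05 against 6.22% of all tested probe sets). No probe set of the array passed it (0.0%). The larger size with olive oil than with beef tallow is therefore not shown to be a difference between the fats.

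**Figure D2:**
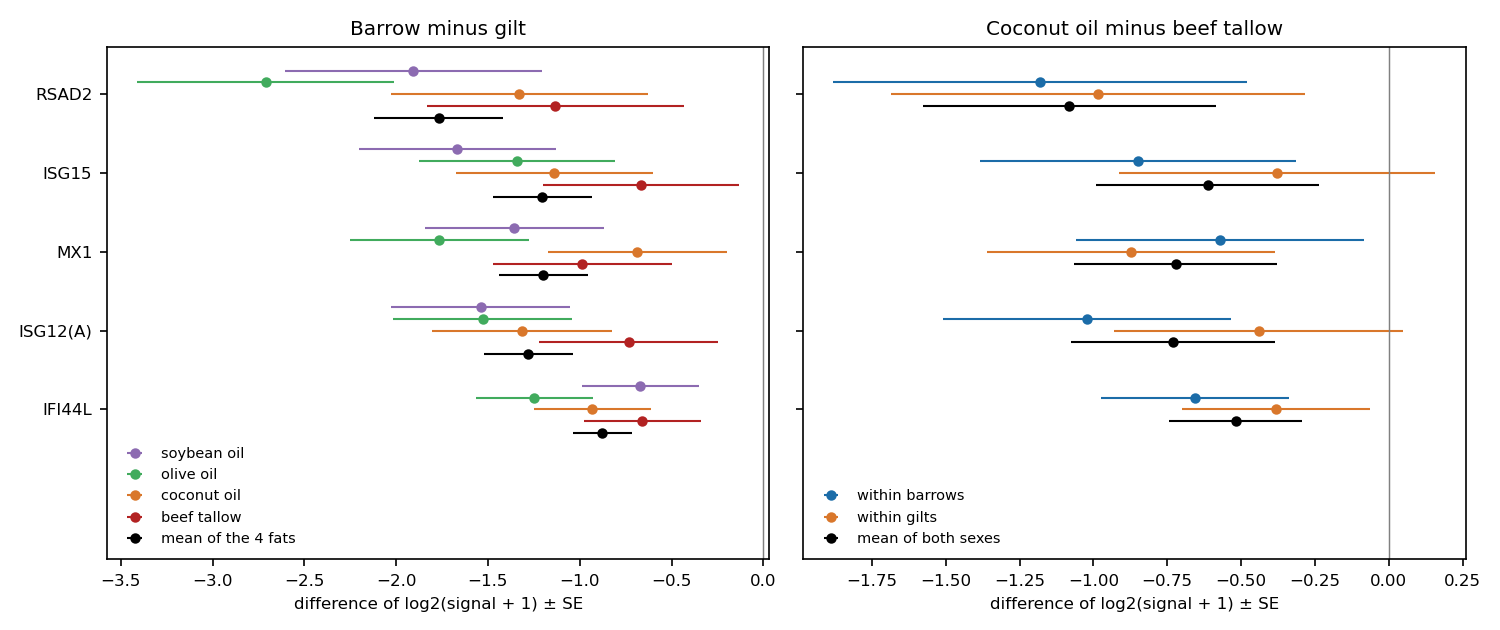
Differences of log2(signal + 1) ± SE from limma for the brightest probe set of each gene. Left, barrow minus gilt in each fat (colours) and averaged over the fats (black), all below 0. Only the averages over the fats passed the test there. Right, coconut oil minus beef tallow within barrows, within gilts and averaged over the sexes, of which none passed the test.

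Several other measures were set beside sex and beside the mean level of the 5 genes. Marker genes of leukocytes and macrophages (9 of 13 on the array, 6 tested, with CD4, CD8A and PTPRC below the signal filter) had a summed signal of 4635 to 11165 in barrows (median 7651) and 5200 to 12525 in gilts (median 8537). None of the 6 passed between the sexes, and their median difference was 0.12. Only 1 of the 6 was lower in barrows, so most single markers pointed the opposite way to the median of the sum. The sum correlated with the mean level of the 5 genes at r = 0.262 over the 24 pigs. Fat cell markers (3 of 4, all tested) had a summed signal of 5843 to 24986 in barrows (median 10303) and 7341 to 34887 in gilts (median 15066), with r = 0.474. None of these 3 passed between the sexes, and their median difference was -0.51. The endothelial markers (4 of 4) summed to 4098 to 6589 in barrows and 4375 to 9235 in gilts, with a median difference of -0.11 and r = 0.294. The fibroblast markers (3 of 5) summed to 10893 to 46609 in barrows and 12849 to 24197 in gilts, with a median difference of 0.07 and r = 0.260, and none of either list passed. The part of these cells in the sex difference was not tested.

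The array median correlated with the mean level of the 5 genes at r = 0.814 in barrows and 0.0647 in gilts. With each array centred on its median all 6 probe sets still passed between the sexes. The 3' to 5' ratio of GAPDH probe sets, which speaks to RNA integrity, ran between 0.0941 and 0.318 in barrows and between 0.0283 and 0.234 in gilts (log2). That of actin lay between 0.882 and 1.84 in barrows and between 0.962 and 1.66 in gilts. The mean level of the 5 genes correlated with the actin ratio at r = 0.275 in barrows and -0.56 in gilts, and the part of RNA quality was not tested.

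The question of the study was the dietary fat, and none of the 6 probe sets passed for any pair of fats. Averaged over both sexes, the geometric mean signal of RSAD2 was 336 with coconut oil, 409 with olive oil, 555 with soybean oil and 711 with beef tallow (n = 6 each). ISG12(A) ran in the same order with 1175, 1387, 1551 and 1952, and ISG15 with 432, 545, 608 and 661. So did the brightest probe set of IFI44L, with 615, 731, 865 and 881. MX1 had 333 with coconut oil, 432 with olive oil, 572 with soybean oil and 549 with beef tallow, so that the upper 2 changed places. The second tested probe set of IFI44L had 307 with coconut oil, 372 with olive oil, 352 with soybean oil and 392 with beef tallow. There olive oil and soybean oil changed places. No neighbours in these orders differed beyond their spread.

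For 4 of the 5 genes the widest gap lay between coconut oil and beef tallow, and for MX1 between coconut oil and soybean oil. RSAD2 averaged 8.39 ± 1.29 with coconut oil and 9.48 ± 1.11 with beef tallow (log2 scale, SD, n = 6 each), a difference of -1.08 ± 0.50 (SE; limma adjusted p = 0.227). The differences of ISG12(A), MX1, ISG15 and IFI44L were -0.73 ± 0.35, -0.72 ± 0.34, -0.61 ± 0.38 and -0.52 ± 0.23, with limma adjusted p of 0.243, 0.249, 0.378 and 0.207. None of the 6 probe sets passed in this pair, where 1.12% of all tested probe sets did. At an unadjusted p under 0.05 there were 4 of the 6, against 19.8% of all tested probe sets. The median difference was -0.67 for the 6 and -0.04 for all tested probe sets.

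The summed signal of the fat cell markers was 5843 to 10091 with coconut oil (median 6941), against 7406 to 33416 with beef tallow (median 16044). The fatty acid binding protein FABP4 was lower with coconut oil by a difference of -1.09 ± 0.27 (limma adjusted p = 0.0483), 1 of the 3 tested markers. The fibroblast markers summed to 10893 to 17787 with coconut oil (median 14433) and to 15250 to 46609 with beef tallow (median 23224). Of these 3 the collagen chain COL1A2 and the proteoglycan decorin (DCN) were lower with coconut oil, by differences of -1.46 ± 0.35 and -0.71 ± 0.17 (limma adjusted p of 0.0479 and 0.0477). All 3 calls were near the threshold. They were lost under the additive model, and when each pig was left out in turn FABP4 kept its call in 4 of 24 cases, COL1A2 in 7 and DCN in 8. The 4 endothelial markers summed to 4313 to 6345 with coconut oil (median 4716) and to 4098 to 7018 with beef tallow (median 5414), and none passed. The leukocyte and macrophage markers summed to 4635 to 10428 with coconut oil (median 6656) and to 6310 to 10851 with beef tallow (median 7338), and none of the 6 passed. Their part in the levels of the interferon-induced genes was not tested.

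In the other 5 pairs averaged over the sexes, and in the F test over the 4 fats, no probe set of the array passed (0.0% in each), and so none of the members. At an unadjusted p under 0.05, 2 of the 6 stood out in soybean oil minus coconut oil (13% of all tested probe sets): MX1 with 0.78 ± 0.34 and IFI44L with 0.49 ± 0.23. In the remaining 4 pairs there was none. These pairs share pigs, so their differences are not separate observations.

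Within barrows, the difference between coconut oil and beef tallow was -1.18 ± 0.70 for RSAD2, -1.02 ± 0.49 for ISG12(A), -0.85 ± 0.53 for ISG15, -0.66 ± 0.32 for IFI44L and -0.57 ± 0.49 for MX1. None passed (limma adjusted p of 0.233 to 0.526, 2.07% of all tested probe sets passed), and 1 of the 6, ISG12(A), had an unadjusted p under 0.05, against 21.2% of all tested probe sets. These values leaned on single barrows of the beef tallow group. Without barrow 21 the difference of RSAD2 was -0.65 and that of MX1 -0.14, and without barrow 24 they were -1.76 and -1.14. Olive oil minus beef tallow was -1.59 ± 0.70 for RSAD2 (limma adjusted p = 0.293, 0.118% of all tested probe sets passed). No member passed in the other 4 pairs within barrows or in the F test there, nor did any other probe set (0.0% in each). Over these 5 pairs 1 member, RSAD2 in olive oil minus beef tallow, had an unadjusted p under 0.05, against 15.0% of all tested probe sets in that pair.

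Groups of 3 barrows that do not overlap were common over the whole array. For coconut oil minus beef tallow this held for IFI44L (brightest probe set) and ISG12(A), 2 of 6, both lower, against 17.7% of all tested probe sets. For olive oil minus beef tallow it held for these and RSAD2, 3 of 6, against 13.9%. ISG12(A) alone was lower without overlap with soybean oil than with beef tallow (7.16%). IFI44L and MX1 were higher without overlap with soybean oil than with coconut oil (11.9%), and these and RSAD2 were higher with soybean oil than with olive oil (6.99%).

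Within gilts, coconut oil minus beef tallow was -0.98 ± 0.70 for RSAD2, -0.87 ± 0.49 for MX1, -0.44 ± 0.49 for ISG12(A), -0.38 ± 0.53 for ISG15 and -0.38 ± 0.32 for IFI44L. None passed (limma adjusted p of 0.977 to 0.985), and no probe set of the array did (0.0%). Soybean oil, olive oil and beef tallow were nearly level in gilts, with RSAD2 at 10.07 ± 0.93, 10.03 ± 1.08 and 10.04 ± 0.92, and at 9.06 ± 1.65 with coconut oil (log2 scale, SD, n = 3 each). Gilts 1 and 5 lay at opposite ends of the coconut oil group. Without gilt 1 the differences of ISG15 and ISG12(A) turned to 0.05 and 0.09 and that of RSAD2 was -0.23, and without gilt 5 the 3 differences were -0.79, -1.04 and -1.87. No member passed in the other 5 pairs or in the F test within gilts, and 1, MX1 in soybean oil minus coconut oil (1.12 ± 0.49), had an unadjusted p under 0.05, against 7.77% of all tested probe sets in that pair. Of all tested probe sets 0.0139% passed in soybean oil minus olive oil and 0.0% in the rest.

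The spread between pigs of the same fat and sex was wide for 4 of the 5 genes. The residual SD around the 8 group means was 0.954 for RSAD2 on the log2 scale, larger than that of 98.8% of all tested probe sets. It was 0.722 for ISG15 (95.9%), 0.656 for ISG12(A) (94.2%) and 0.654 for MX1 (94.1%). For IFI44L it was 0.412 (73.3%) and 0.337 for its second probe set (55.2%), and the median of all tested probe sets was 0.319.

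The spread was wider in gilts for all 5 genes. It was 0.648 in barrows and 1.18 in gilts for RSAD2, 0.375 in barrows and 0.949 in gilts for ISG15, and 0.395 in barrows and 0.839 in gilts for ISG12(A). For MX1 it was 0.584 in barrows and 0.717 in gilts, and for IFI44L 0.271 in barrows and 0.517 in gilts. With beef tallow alone the SD was wider in barrows for RSAD2 (1.12 against 0.92 in gilts), MX1 (1.02 against 0.33) and IFI44L (0.38 against 0.28). It was wider in gilts there for ISG15 (0.55 in barrows, 0.72 in gilts) and ISG12(A) (0.54 in barrows, 0.75 in gilts), with 3 pigs per group. Over all tested probe sets the medians were 0.289 in barrows and 0.326 in gilts, and 61.7% had the wider spread in gilts. These spreads are a description and were not tested.

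The 5 genes ranked many of the pigs alike, above all at the upper end. Gilts 4 and 11 held ranks 1 to 3 in every gene, and gilt 5 ranks 2 to 5; they came from the olive oil, soybean oil and coconut oil groups. Barrow 21, on beef tallow, held ranks 7 and 8. At the low end, barrow 15 held ranks 22 to 24 and barrow 17 ranks 16 to 24, and gilt 1 was the lowest gilt in 4 of the 5 genes, with gilt 6 below it in MX1. Other pigs moved further between the genes: gilt 6 held rank 8 in ISG15 and rank 20 in MX1, barrow 24 ranks 14 to 23 and barrow 19 ranks 12 to 21. Each of the 4 fats had gilts among the upper 6 pigs. For RSAD2 the widest gap in the order, 0.92 on the log2 scale, lay between signals of 532 and 1007, with 7 gilts and barrow 21 above it and 16 pigs below.

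**Figure D3:**
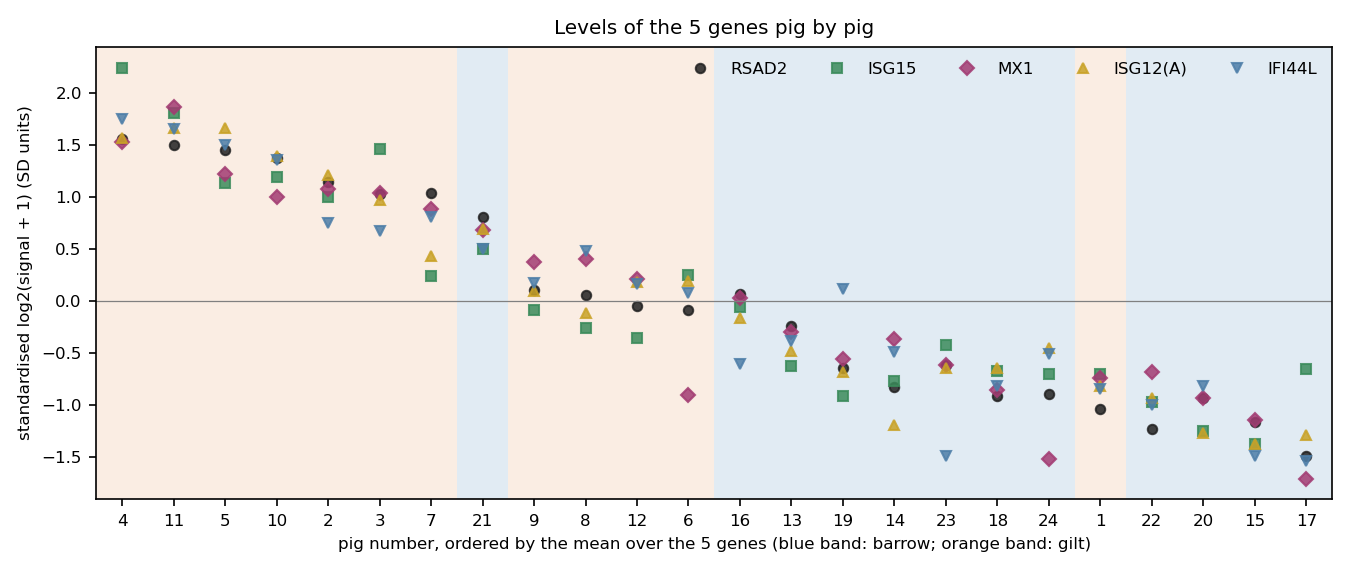
Standardised log2(signal + 1) of the 5 genes (symbols, SD units over the 24 pigs) for each pig, ordered by the mean over the genes; blue bands mark barrows and orange bands gilts. The symbols lie close together for the leading pigs and less so for others such as gilt 6, 7 gilts and barrow 21 lead, and gilt 1 stands among the barrows.

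Over the 24 pigs the levels of the 5 genes were closely correlated. Pearson's r of the 10 gene pairs lay between 0.869 (ISG15 with IFI44L) and 0.968 (RSAD2 with ISG12(A)), and Spearman's rho between 0.824 and 0.949. All 10 passed (permutation tests with 100000 resamples, adjusted over the pairs, p = 1e-05 for each, the smallest they can give). Without the 2 pigs farthest from the median, r was 0.815 to 0.959. All values of a pig come from 1 array, and the sexes differ in level, so the pairs were also taken within each sex.

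In gilts alone r lay between 0.806 and 0.957 and rho between 0.825 and 0.986, and all 10 pairs passed (permutation, largest adjusted p 0.00125 for r and 0.00158 for rho). Without the 2 farthest gilts r was 0.720 to 0.937. In barrows alone r lay between 0.505 and 0.903 and rho between 0.280 and 0.860. By r, 9 of 10 pairs passed, and ISG15 with IFI44L did not (r = 0.505, permutation adjusted p = 0.0921; rho = 0.280, adjusted p = 0.379). By rho 8 of 10 passed, since ISG15 with MX1 did not either (rho = 0.552, permutation adjusted p = 0.0741). Without barrow 21 and 1 of barrows 15, 16 and 17, r in barrows ran between -0.15 and 0.715, so several of the relations in barrows rest on these pigs. RSAD2 with MX1 then had the highest r, 0.715, against 0.891 over all 12 barrows.

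With the group means of fat and sex taken off, r lay between 0.753 (ISG15 with MX1) and 0.951 (RSAD2 with ISG12(A)) and rho between 0.688 and 0.938. All 10 pairs passed (permutation within groups, largest adjusted p 0.00306 for r and 0.00709 for rho). The genes thus ran together among pigs on the same fat and of the same sex. Among the 16 pigs below the widest gap of RSAD2, r lay between 0.471 and 0.879 with 9 of 10 pairs past the threshold (permutation). Among the 8 above it r lay between 0.731 and 0.979. This split was cut from the RSAD2 values themselves, and both sexes lay on each side of it. The values on either side are therefore a description only.

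Of the 5340 other genes ranked, the 10 whose levels ran most like the mean of the 5 genes were, in order, PARP12, EIF2AK2, USP18, IFIT3, RSF1, XAF1, IFIT1, PLAC8, LOC733579 and DDX58. Likeness was measured as Pearson's r over the 24 pigs, all points sharing the array of the pig. The median r of all genes was 0.0469, and 11 genes exceeded 0.8.

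PARP12, an interferon-induced ADP-ribosyltransferase, had r = 0.963 (0.885 in barrows, 0.944 in gilts), with signals of 115 to 336 in barrows and 161 to 682 in gilts. EIF2AK2, the RNA-dependent kinase PKR that halts translation, had r = 0.945 (0.911 in barrows, 0.891 in gilts). USP18, the protease that removes ISG15 from proteins and dampens interferon signalling, had r = 0.923 (0.688 in barrows, 0.955 in gilts). IFIT3 and IFIT1, which belong to a family that binds viral RNA, had r of 0.918 and 0.877. XAF1, an interferon-induced promoter of cell death, had r = 0.888, and DDX58, the RNA sensor RIG-I, r = 0.842. RSF1, a subunit of a chromatin remodelling complex, had r = 0.898, PLAC8 r = 0.865 and LOC733579 r = 0.858. For 9 of the 10, EIF2AK2 being the exception, r was lower in barrows than in gilts.

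**Figure D4:**
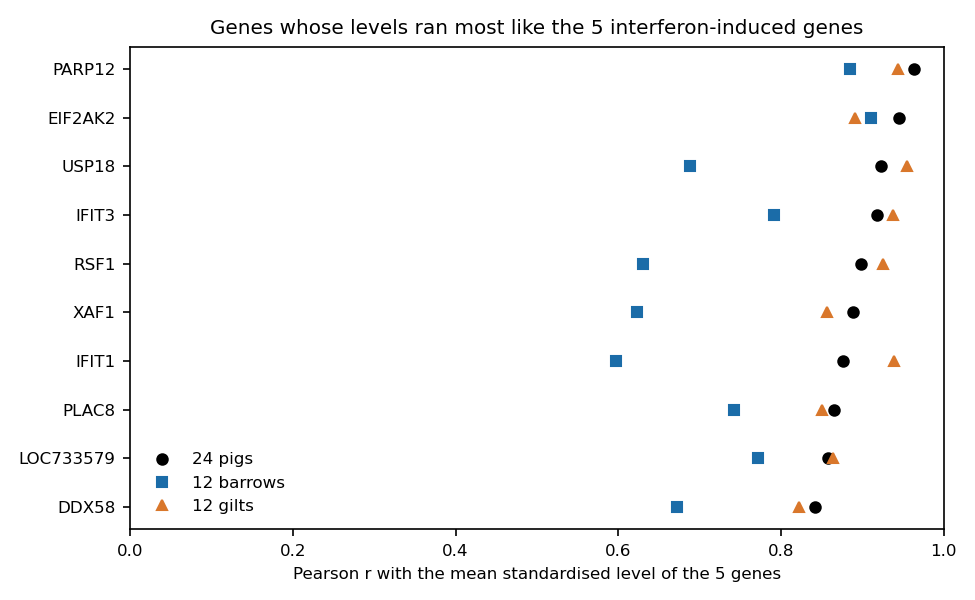
Pearson's r between the mean standardised level of the 5 genes and each of the 10 genes most like it, over 24 pigs (black), 12 barrows (blue) and 12 gilts (orange). The values over 24 pigs run between 0.842 and 0.963, and those in barrows between 0.597 and 0.911.

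The rest of the interferon pathway was followed through 5 lists with 101 genes, of which 59 had a probe set and 48 were tested. Among the receptors and signalling genes, 9 of 15 were tested between barrows and gilts. IRF9, the DNA-binding part of the factor that interferon activates, was lower in barrows by a difference of -0.65 ± 0.16 (limma adjusted p = 0.0237), with signals of 127 to 329 in barrows and 171 to 626 in gilts. IFNAR1, a chain of the receptor, was higher in barrows by 0.40 ± 0.11 (limma adjusted p = 0.0412), with 700 to 1209 in barrows and 562 to 953 in gilts. The other 7 did not pass, among them STAT2 with -0.24 ± 0.14 and TYK2 with -0.00 ± 0.09, and the median of the list was -0.10.

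None of the 5 tested sensors and adaptors (of 17) passed. DDX58 had -0.69 ± 0.22 (limma adjusted p = 0.0746), IRF3, which drives interferon transcription, -0.27 ± 0.13 and the mitochondrial adaptor MAVS -0.34 ± 0.21, and the median was -0.27. Unadjusted, DDX58 and IRF3 had p under 0.05 (0.00505 and 0.0441), against 21.1% of all tested probe sets.

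Of the other interferon-induced effectors 18 of 46 were tested, and 6 were lower in barrows and none higher. These were PARP12 with -1.04 ± 0.19 (limma adjusted p = 0.00511), PARP9 with -0.66 ± 0.13 (0.00621), EIF2AK2 with -0.88 ± 0.19 (0.0126), XAF1 with -1.12 ± 0.27 (0.0198), IFIT2 with -0.56 ± 0.13 (0.0202) and IFIT3 with -0.84 ± 0.24 (0.0499). PARP9 had signals of 93.7 to 274 in barrows and 219 to 318 in gilts. Effectors that did not pass included IFIT1 with -0.61 ± 0.21, MX2, the paralog of MX1, with -0.32 ± 0.17, and OAS1, which makes the activator of the RNase L pathway, with 0.24 ± 0.59. The median of the list was -0.26.

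Of the 5 tested negative regulators (of 8) USP18 was lower in barrows, by a difference of -1.12 ± 0.29 (limma adjusted p = 0.0316), with signals of 99.5 to 325 in barrows and 112 to 961 in gilts. TRIM24 had -0.41 ± 0.15 and IRF2 -0.12 ± 0.11, and neither passed. Of 11 tested genes of class I antigen presentation (of 15) SLA-3 was lower in barrows, by a difference of -0.76 ± 0.19 (limma adjusted p = 0.0281). Class I genes are near-identical copies whose probe sets can share transcripts, so the gene behind that signal is uncertain. The other class I genes SLA-1 and SLA-2 had 0.08 ± 0.12 and -0.02 ± 0.13, and the proteasome subunit PSMB8 had -0.33 ± 0.14.

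In all, 9 of the 48 genes were lower and 1 higher in barrows, where 4.77% of the tested probe sets passed in either direction. This count moved with the setting. It was 3 lower with no signal filter and 4 without pigs 11, 12 and 16, and the single higher gene was lost in both. When each pig was left out in turn, PARP12, PARP9, EIF2AK2, XAF1, IFIT2 and IRF9 kept their call in all 24 cases. USP18 and SLA-3 each kept it in 17, IFNAR1 in 6 and IFIT3 in 3. No gene of the 5 lists passed between coconut oil and beef tallow or in the F test over the fats (limma), with 6 and 2 of the 48 at an unadjusted p under 0.05, against 19.8% and 11.6% of all tested probe sets. MYD88, an adaptor of toll-like receptors, and IRF9 had the smallest F test p of the 48 (0.0139 and 0.0218, limma adjusted p of 0.309 and 0.342). Between coconut oil and beef tallow IRF9 had a difference of -0.58 ± 0.23 and MYD88 one of -0.53 ± 0.16, in the same direction as the 5 genes but not past the threshold.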

How the data were processed

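RNA of 24 pig muscles was hybridised to a 1-colour Affymetrix array, per the labels' protocols. The authors deposited 1 linear intensity value per pig for each of 24123 probe sets; the summarisation and scaling used by the authors are not given in the sources used here. No genome build is given either, and coordinates are not reported. Gene symbols came from the array's annotation table, checked against RefSeq gene identifiers (all 5 genes matched).

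Signals were turned into log2(signal + 1). Of the 23999 probe sets that are not controls, 14399 at or above the 40th percentile of the mean log2 value (a signal of 86.3) entered 1 fit with the 8 means of fat and sex (limma 3.58.1, functions lmFit and eBayes, under R 4.3.3), with 1 estimate of spread from all arrays. Tests were two-sided, with Benjamini-Hochberg adjustment over all tested probe sets within each contrast and 0.05 as the threshold. On simulated data with 200 probe sets changed by 1 on the log2 scale between the sexes, the same fit called 182 of them and 12 others. The noise was independent between probe sets, and the changed ones were drawn at random from all tested. This recovery therefore does not carry over to the members, most of which had a wider spread, or to contrasts of fats or within 1 sex. Correlations used the brightest tested probe set of each gene, and permutation tests ran in Python 3.11.15 with scipy 1.17.1. Precision is limited by the number of pigs, since arrays hold no counts.

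The members, the gene lists and the tests were chosen with earlier results of these data known. All member probe sets are described. Other genes are named as the 10 most correlated with the members, and as the 3 genes of each of the 5 pathway lists with the smallest p for the fats and for sex; further list genes were named after their values were seen. List genes were taken by their brightest tested probe set. Alternatives were no filter, the 60th percentile, quantile normalization, centring on array medians, a pseudocount of 16, an additive model, a trended and robust prior, array weights, 1 probe set per gene, the arrays compared alone and leaving out each pig. Added after seeing the data were leaving out pigs 11, 12 and 16 together, keeping controls, the sex difference within each fat, exact permutation of the sexes, and correlations on each side of the widest RSAD2 gap.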

Additional observations from a re-analysis of the deposited data

Results flagged for a closer look

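In 2 of 40 sets of 6 pigs on the same fat (10 probe sets by 4 fats) 1 pig stood apart, both times gilt 5 on coconut oil. By chance about 1 in 20 such sets would do so. For MX1 the gap between gilt 5 and the next pig was 0.778 of the whole range of the 6 pigs on the log2 scale, above the critical value of 0.625 (Dixon), with a signal of 992 against 312. For the 3' control probe set of RSAD2 the gap was 0.683, with a signal of 473 against 85.4. The next pig was barrow 23 for MX1 and gilt 6 for the RSAD2 control.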

How the results depend on the processing

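All 6 tested probe sets were lower in barrows, averaged over the fats, under each alternative run. The count past the threshold was 5 of 5 with 1 probe set per gene, 7 of 10 with the controls kept, and 6 each time a pig was left out, and the largest adjusted p among the main probe sets was 0.0433 (ISG15, controls kept). Within olive oil alone, array weights gave 5 probe sets past the threshold in place of 0, where the calls over the whole array became 189 (1.31%) in place of 27. No alternative gave a member past the threshold for any pair of fats or F test over fats. The coconut oil minus beef tallow difference within gilts turned round without pig 1 for ISG15 (0.045, range over the pigs left out -0.79 to 0.05), the second probe set of IFI44L (0.084, range -0.49 to 0.08) and ISG12(A) (0.088, range -1.04 to 0.09); the cause was not tested. All 10 gene pairs stayed past the threshold each time a pig was left out. The count of pathway genes lower in barrows, 9, became 3 with no filter (controls kept or not), where more probe sets enter the adjustment, and 4 without pigs 11, 12 and 16, where fewer pigs are left; array weights gave 12. Over all tested probe sets the count between the sexes, 687, was 302 with no filter, 416 without those 3 pigs and 1530 with array weights. With 1 pig left out it lay between 386 (without pig 14) and 1057 (without pig 7), and that of coconut oil minus beef tallow, 161, between 0 (without any 1 of pigs 6, 8, 16 and 21) and 664 (without pig 12). This last count was 0 under the additive model, 6 with no filter, 51 with quantile normalization, 260 without pigs 11, 12 and 16, 279 at the 60th percentile, 313 with the arrays of the 2 fats alone and 1264 with array weights. No paired analysis was possible because the replicate numbers run through the whole series and no number is shared between groups. With 3 pigs per fat and sex, differences within 1 sex or fat have wide errors, and the pens of the pigs could not be allowed for.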
